A study of Mus musculus with 16 samples.

Results

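The interleukin-1 (IL-1) family and Toll-like receptor genes IL1A, IL1B, IL33, IL1RN, IL1R1, IL1RL1, IL1RAP, TLR2, TLR3 and TLR4 were followed across 16 Illumina Mouse 8 arrays of primary mouse mammary fibroblasts. They were chosen by gene symbol, and all 10 were present among the 18132 genes of the table. Fibroblasts were grown from the inguinal mammary glands of female 129S6 mice, between 8 and 10 weeks of age, that were either MEKK1+/+ or MEKK1-/-, where MEKK1 is a kinase upstream of MAP kinase pathways encoded by the gene MAP3K1. Cultures of each genotype were kept in growth medium or were given, for 8 h, medium harvested from cultures of MDA-MB-231, a human breast tumour line (conditioned medium). The 4 groups (MEKK1+/+ untreated, MEKK1+/+ with conditioned medium, MEKK1-/- untreated and MEKK1-/- with conditioned medium) held 4 arrays each. The study calls the arrays of a group culture replicates, used fewer mice per genotype than arrays per group and did not name the mouse behind each array, so the spread between arrays, and every p-value that rests on it, may be partly technical.

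IL-1 alpha (IL1A) and IL-1 beta (IL1B) are inflammatory cytokines that bind IL1R1, which then recruits the accessory chain IL1RAP, while IL1RN encodes a secreted antagonist that occupies IL1R1 without signalling. IL-33, a nuclear alarmin made by stromal and barrier cells, acts through IL1RL1 (also called ST2) with the same accessory chain. Toll-like receptors recognise microbial products (lipoproteins by TLR2, double-stranded RNA by TLR3, lipopolysaccharide by TLR4), and their cytoplasmic domain is shared with the IL-1 receptors. IL-1 receptors and most Toll-like receptors, though not TLR3, pass through MYD88 and IRAK kinases to NF-kB and to the MAP kinases that drive AP-1. Fibroblasts are known both to respond to IL-1 and to make IL-1 responsive cytokines and chemokines.

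Promoters of IL1B, IL1A and TLR2 are shown because these genes carried the largest differences or the motifs searched, and they were chosen after their values were seen. RefSeq windows of GRCm38.p6, from 250 bases before to 50 bases after a gene's start, were found for 9 of the 10 genes. All 3 genes lie on the minus strand, and each window is printed 5′ to 3′ along it, with matches to the NF-kB consensus or to the AP-1 motif TGANTCA, on either strand, in capitals. These windows lay at chr2:129371090-129371389 for IL1B, at chr2:129309923-129310222 for IL1A and at chr3:83841559-83841858 for TLR2.
IL1B: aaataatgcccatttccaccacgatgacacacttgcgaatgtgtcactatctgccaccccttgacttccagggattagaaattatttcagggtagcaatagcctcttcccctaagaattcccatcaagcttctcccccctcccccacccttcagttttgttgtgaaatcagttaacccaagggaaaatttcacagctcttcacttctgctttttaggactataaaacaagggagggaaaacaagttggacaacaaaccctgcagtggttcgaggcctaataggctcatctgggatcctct
IL1A: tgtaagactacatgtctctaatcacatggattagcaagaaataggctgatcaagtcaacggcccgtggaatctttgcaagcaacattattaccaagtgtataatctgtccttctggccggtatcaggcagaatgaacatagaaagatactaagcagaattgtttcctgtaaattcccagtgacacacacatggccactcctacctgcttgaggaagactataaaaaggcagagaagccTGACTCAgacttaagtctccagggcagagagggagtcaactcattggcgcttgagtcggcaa
TLR2: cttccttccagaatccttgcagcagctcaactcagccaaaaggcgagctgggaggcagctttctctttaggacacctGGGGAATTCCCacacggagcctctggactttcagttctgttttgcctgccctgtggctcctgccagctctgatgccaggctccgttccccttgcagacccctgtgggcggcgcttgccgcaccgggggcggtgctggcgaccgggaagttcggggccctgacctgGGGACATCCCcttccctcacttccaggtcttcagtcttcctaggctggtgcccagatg
The IL1B window held neither motif and had the letters TATAAA starting at position -31 from the gene's start. The IL1A window held an AP-1 match from position -12 to -6. In the TLR2 window, overlapping NF-kB matches spanned positions -173 to -163, and another match ran from -8 to 2 across the start. Of 32851 promoter windows of the same length, 8.46% held the NF-kB consensus and 7.81% the AP-1 motif. Further matches were an AP-1 match in 1 of the IL1RN windows and NF-kB matches in 1 of the IL1R1 windows and in the TLR3 window.

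All values are log2 intensities after quantile normalization between arrays, unless stated otherwise. Signal was judged against 1075 olfactory receptor genes, with their 99th percentile on each array, from 7.20 to 7.34, as the level to exceed. Of 14 fibroblast markers in the table, at least 12 were above this level on all 4 arrays of each group. Of 20 macrophage markers in the table, 7 were above it on no array, PTPRC (CD45) and ITGAM (CD11b) among them, while LAPTM5, CSF1R and C1QB were above it on every array. The mean of the macrophage list was 8.51, 7.88, 8.32 and 8.09 on untreated MEKK1+/+ replicates 1 to 4 and 7.76, 8.15, 7.43 and 7.44 on untreated MEKK1-/- replicates 1 to 4, so that untreated replicate 2 was the lowest array of its group in MEKK1+/+ and the highest in MEKK1-/-. Both MEKK1-/- arrays numbered 1 stood apart in epithelial markers, with list means of 9.39 and 9.38 against 6.99 to 7.54 on the other 14 arrays. MAP3K1 itself averaged 7.71 and 7.74 in untreated and treated MEKK1+/+ arrays and 8.24 and 8.07 in MEKK1-/- arrays, and thus was not lower in the knockout. Untreated MEKK1-/- arrays (8.06 to 8.41) all lay above untreated MEKK1+/+ arrays (7.51 to 7.95), while the genotypes overlapped with conditioned medium. Where the probe lies relative to the deletion is not given in the sources used here, and the genotype of each array is that of its label throughout.

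IL1RL1, IL33 and TLR2 were above the olfactory level on all 16 arrays. IL1B and IL1RN were above it on 12 arrays each, TLR4 on 11, IL1RAP on 10 and IL1A on 8. IL1R1 and TLR3 were above it on no array, and no fold change is given for them. The array signal of these mixed RNA samples does not tell fewer cells of a type from less RNA per cell.

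**Figure D1:**
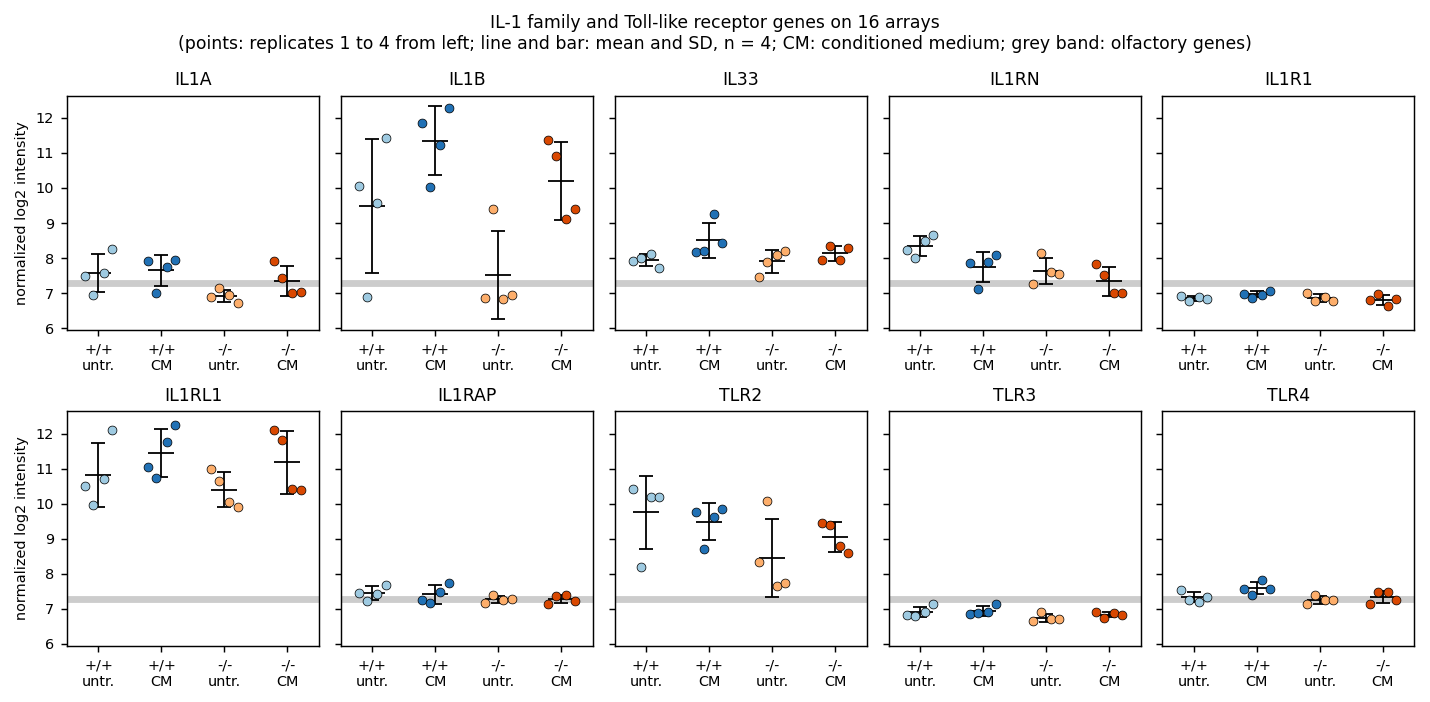
Normalized log2 intensity (y axis) of each gene in the 4 groups (x axis, +/+ and -/- for MEKK1 genotype), with a point per array, the group mean and SD (n = 4) as line and bar, and the range of the olfactory level as a grey band. IL1B spreads from 6.84 to 12.29, while all arrays of IL1R1 and TLR3 lie under the band.

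Exposure to conditioned medium asks whether a breast tumour cell secretome alters these genes in fibroblasts. In MEKK1+/+ arrays, 0 of the 10 genes passed an adjusted p of 0.05 (limma, Benjamini-Hochberg over all 18132 genes), against 5.01% of all genes. At an unadjusted p under 0.05 there were 4 of 10, against 16.8% of all genes. Of these, IL1B, IL33 and TLR4 were higher (8.18% of all genes) and IL1RN was lower (8.64%). In MEKK1-/- arrays, 0 of 10 passed the adjusted threshold, against 4.69% of all genes, and IL1B was the 1 gene with an unadjusted p under 0.05, against 16.2% in either direction and 7.68% higher. A replicate block within each genotype took same-numbered arrays as pairs in both genotypes, with a shared estimate of the spread. With it, 2 of the 10 genes passed in MEKK1-/- arrays (IL1B and IL1RL1, both higher), against 7.93% of all genes. In MEKK1+/+ arrays 3 of 10 passed (IL1B, IL1RL1 and IL33, all higher), against 8.17% of all genes. The MEKK1+/+ numbers were judged not to pass a check of pairing that had no set cutoff. Pairing is not shown in either genotype. The MEKK1-/- calls thus rest in part on the MEKK1+/+ pairing, and calls from pairs show no difference between genotypes.

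Comparing genotypes asks whether MEKK1 is needed for the expression of these genes. No member passed the adjusted threshold between genotypes, and neither did any of the 18132 genes in untreated cells (0%) and only 1 gene with conditioned medium (0.00552%). In untreated cells 9 of the 10 genes had a lower mean on MEKK1-/- arrays, as did 47.2% of all genes, and 4 of them (IL1A, IL1B, IL1RN and TLR2) had an unadjusted p under 0.05, against 9.27% of all genes, or 4.35% counting lower ones alone. With conditioned medium all 10 means were lower on MEKK1-/- arrays, as were 48.4% of all genes, and IL1R1 and TLR4 had an unadjusted p under 0.05, against 8.09% of all genes, or 3.65% lower. The median difference over the 10 genes was -0.30 in untreated cells and -0.29 with conditioned medium, and 0.0080 and 0.0043 over all genes. The genotype comparisons share their arrays with the treatment comparisons. For the difference between the responses of the genotypes to conditioned medium, 0 of 10 genes passed (0% of all genes), none had an unadjusted p under 0.05 (2.61% of all genes), and the limma adjusted p was 1.00 for every member.

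**Figure D2:**
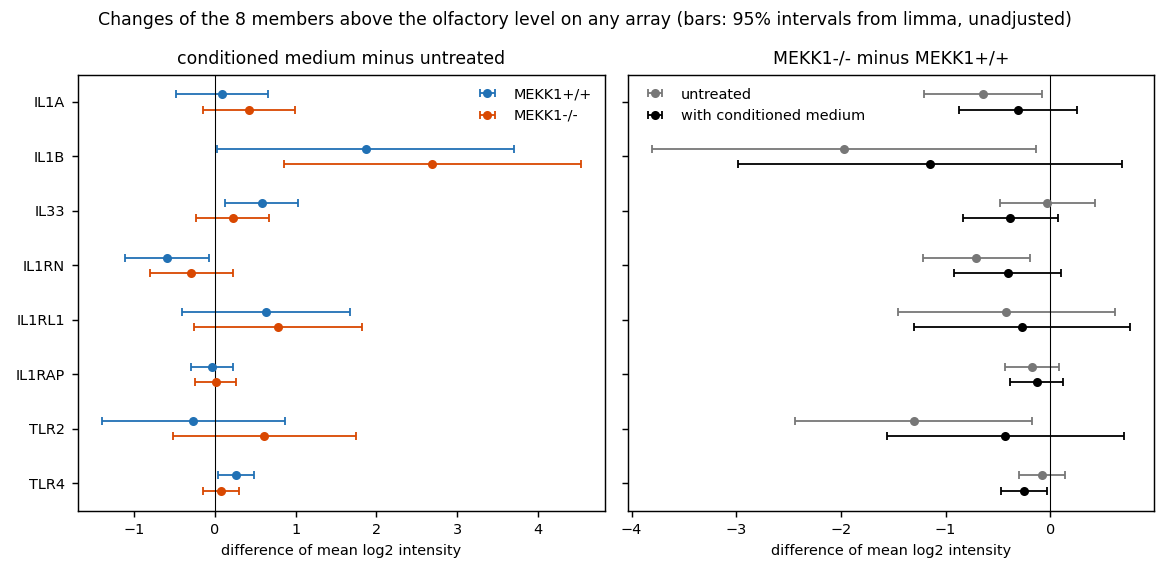
Difference of mean log2 intensity (x axis) for the 8 genes above the olfactory level on at least 1 array, with 95% intervals from limma that are not adjusted for the number of genes. IL1B lies furthest from 0 in all 4 comparisons, and its interval with conditioned medium in MEKK1-/- arrays runs from 0.85 to 4.53.

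Among the ligands, IL1B moved over the widest range. Untreated MEKK1+/+ arrays gave 10.07, 6.88, 9.57 and 11.43 for replicates 1 to 4, and those with conditioned medium 11.85, 10.04, 11.23 and 12.29. Replicate 2 was the lowest array of both groups, and under the olfactory level without conditioned medium. Untreated MEKK1-/- arrays gave 6.87, 9.40, 6.84 and 6.94, and those with conditioned medium 11.36, 10.92, 9.12 and 9.40. Without conditioned medium, IL1B was thus above the olfactory level on 3 of 4 MEKK1+/+ arrays and on 1 of 4 MEKK1-/- arrays, and with conditioned medium on all 4 arrays of each genotype. Group means ranked MEKK1+/+ with conditioned medium (11.35 ± 0.98, SD, n = 4), MEKK1-/- with conditioned medium (10.20 ± 1.11), MEKK1+/+ untreated (9.48 ± 1.91) and MEKK1-/- untreated (7.51 ± 1.26), and neighbours in this order overlapped.

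With conditioned medium the mean of IL1B was 2.69 higher in MEKK1-/- arrays on the log2 scale (SE 0.86), with a limma adjusted p of 0.0991. Since 3 of the 4 untreated arrays were under the olfactory level, this difference is partly one from background, and with that level in their place it was at least 5.26-fold. The exact 2-sided permutation test of these 4 arrays against 4 gave p = 0.0571, where the smallest possible value is 0.0286. Taken as pairs, the same-numbered arrays differed by 4.50, 1.52, 2.28 and 2.46 as measured, or by at least 4.07, 1.82 and 2.16 for replicates 1, 3 and 4 counted from the olfactory level. The rise of IL1B over the pairs was 2.69 as measured (SE 0.44, limma adjusted p = 0.00466 with the replicate block). Fitted on the MEKK1-/- arrays alone, a form added after the data were seen, the paired rise was 2.59 with a limma adjusted p of 0.00766 (8.39% of all genes passed). The call in the unpaired fit turned on single arrays, since it passed without untreated MEKK1-/- replicate 2 (limma adjusted p = 0.0414 for the measured means). All 3 untreated arrays then left were under the olfactory level, so IL1B was at least 7.60-fold brighter with conditioned medium. Without both MEKK1-/- arrays numbered 1, which stood apart in epithelial markers, it was 2.10 (limma adjusted p = 0.332, unpaired).

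In MEKK1+/+ arrays the IL1B difference was 1.87 (SE 0.86, 3.65-fold, limma adjusted p = 0.285), and leaving out untreated replicate 2 brought it to 1.00. The response to conditioned medium differed between the genotypes by 0.82 with a 95% interval from -1.77 to 3.42, which leaves room for a large difference in either direction. Between genotypes the untreated means differed by -1.97 as measured (SE 0.86, limma adjusted p = 0.521, exact permutation p = 0.0857). Against the olfactory level on MEKK1-/- arrays this was 3.20-fold, no strict minimum, since only 3 of 4 MEKK1+/+ arrays were above that level. The means with conditioned medium differed by -1.15 (limma adjusted p = 0.737).

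**Figure D3:**
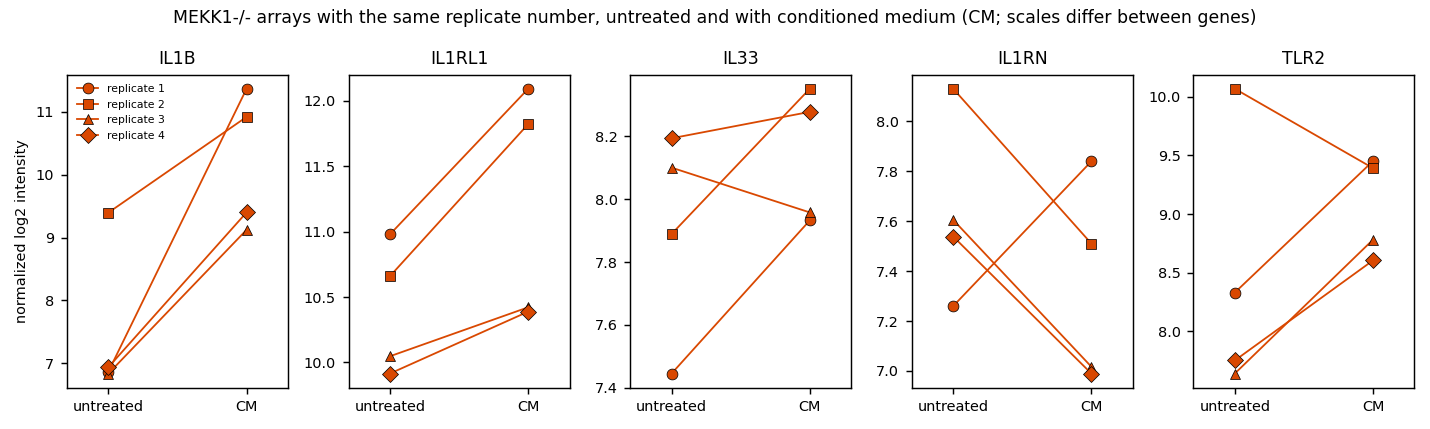
Normalized log2 intensity (y axis, a scale of its own per gene) of MEKK1-/- arrays without and with conditioned medium (x axis), with a line joining arrays of the same replicate number. All 4 lines go up for IL1B and for IL1RL1, while those of IL33, IL1RN and TLR2 go both ways.

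IL1A was near the limit of the signal. It gave 7.49, 6.94, 7.57 and 8.25 in untreated MEKK1+/+ arrays, above the olfactory level on 3 of 4, and 6.90, 7.14, 6.93 and 6.72 in untreated MEKK1-/- arrays, above it on none. The values with conditioned medium were 7.92, 7.01, 7.75 and 7.93 in MEKK1+/+ arrays and 7.90, 7.44, 7.00 and 7.03 in MEKK1-/- arrays. Groups overlapped in each comparison. Untreated MEKK1+/+ arrays were 1.23-fold brighter than untreated MEKK1-/- arrays, where the olfactory level of each MEKK1-/- array stands in for its IL1A signal (limma adjusted p = 0.520 for the measured means). As only 3 of the 4 MEKK1+/+ arrays were above the level, this is no strict minimum. MEKK1-/- arrays with conditioned medium were above the level on only 2 of 4, so no fold against untreated ones is given (limma adjusted p = 0.506 for the measured means).

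IL33 was detected on every array and had a narrow range. It gave 7.91, 8.00, 8.11 and 7.71 in untreated MEKK1+/+ arrays and 8.17, 8.21, 9.24 and 8.42 with conditioned medium. These groups did not overlap, which was true of no other member in this comparison and of 9.7% of all genes. The difference was 0.58 (SE 0.21, 1.49-fold), with an exact permutation p of 0.0286, the smallest the design allows, and a limma adjusted p of 0.154. MEKK1-/- arrays gave 7.45, 7.89, 8.10 and 8.19 untreated and 7.93, 8.35, 7.96 and 8.28 with conditioned medium, and these groups overlapped (0.22 higher with conditioned medium, limma adjusted p = 0.717). The IL33 responses of the genotypes differed by -0.35, with a 95% interval from -0.99 to 0.28.

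IL1RN, the antagonist, had lower means with conditioned medium and lower means on MEKK1-/- arrays. Untreated MEKK1+/+ arrays gave 8.22, 7.99, 8.50 and 8.65, and with conditioned medium 7.86, 7.12, 7.90 and 8.10, so the groups met only at the lowest untreated and the highest treated array. The difference of -0.59 (SE 0.24) had a limma adjusted p of 0.208 and an exact permutation p of 0.0571. With the intensities as deposited, without quantile normalization, it was -0.95 and passed (limma adjusted p = 0.0405), while the median of all genes shifted by -0.28 in that form. Untreated MEKK1-/- arrays gave 7.26, 8.13, 7.61 and 7.54 and were lower than untreated MEKK1+/+ arrays by a mean of 0.70 on the log2 scale, with replicate 2 again the highest (limma adjusted p = 0.465, exact permutation p = 0.0571). MEKK1-/- arrays with conditioned medium gave 7.84, 7.51, 7.02 and 6.99, above the olfactory level on 2 of 4. In the paired view, replicate 1 went up and the other 3 went down.

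Of the receptors of the IL-1 family, IL1RL1 gave clear signal throughout. It was 10.52, 9.98, 10.69 and 12.09 in untreated MEKK1+/+ arrays and 11.05, 10.74, 11.76 and 12.25 with conditioned medium. MEKK1-/- arrays gave 10.98, 10.66, 10.05 and 9.92 untreated and 12.09, 11.82, 10.42 and 10.39 with conditioned medium. The groups overlapped in every comparison, yet each MEKK1-/- replicate number was higher with conditioned medium than without. These paired differences were 1.11, 1.16, 0.37 and 0.47, and IL1RL1 rose by 0.78 in MEKK1-/- arrays with the replicate block (SE 0.16, limma adjusted p = 0.0160). Without the block the same difference had an SE of 0.49 and a limma adjusted p of 0.498. In MEKK1+/+ arrays the unpaired difference was 0.63 (SE 0.49, limma adjusted p = 0.613), and there too each replicate number was higher with conditioned medium. The IL1RL1 responses were not shown to differ between genotypes. Genotypes differed by -0.42 untreated and -0.27 with conditioned medium, each less than its SE of 0.49.

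IL1R1, the signalling receptor of IL-1, lay between 6.63 and 7.06 on all 16 arrays and under the olfactory level on each. Its unadjusted p between genotypes with conditioned medium was therefore that of values with no signal above background. IL1RAP was between 7.15 and 7.75, above the level on 3 arrays of each MEKK1+/+ group and on 2 of each MEKK1-/- group. Its largest difference between groups was -0.18, for genotype in untreated cells, and the limma adjusted p was between 0.660 and 0.986 over the 4 comparisons of groups. On these arrays the accessory chain did not change detectably at this signal.

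TLR2 gave the clearest signal of the Toll-like receptors. Untreated MEKK1+/+ arrays read 10.41, 8.20, 10.21 and 10.20, and untreated MEKK1-/- arrays 8.33, 10.07, 7.64 and 7.75. Replicate 2 was the exception in each, since the other 3 arrays of the genotypes did not overlap. Over all 4 arrays the means differed by -1.31 (SE 0.53, 2.47-fold lower in MEKK1-/-), with a limma adjusted p of 0.519 and an exact permutation p of 0.114. With conditioned medium, MEKK1+/+ arrays read 9.77, 8.70, 9.63 and 9.85 and MEKK1-/- arrays 9.45, 9.39, 8.78 and 8.60, a difference of -0.43 (limma adjusted p = 0.846). The response to conditioned medium was -0.27 in MEKK1+/+ and 0.61 in MEKK1-/- arrays (limma adjusted p = 0.893 and 0.679), and these responses differed by 0.88 with a 95% interval from -0.73 to 2.48.

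TLR3 lay between 6.64 and 7.15 and under the olfactory level on every array. TLR4 read 7.54, 7.25, 7.20 and 7.33 in untreated MEKK1+/+ arrays and 7.56, 7.40, 7.83 and 7.57 with conditioned medium. Only untreated replicate 1 reached into the range with conditioned medium, and the difference was 0.26 (SE 0.10, limma adjusted p = 0.205, exact permutation p = 0.0571). With the intensities as deposited the sign turned (-0.040). MEKK1-/- arrays read 7.14, 7.39, 7.24 and 7.25 untreated and 7.14, 7.47, 7.49 and 7.24 with conditioned medium, with a difference of 0.08. Between genotypes with conditioned medium the difference was -0.25 (limma adjusted p = 0.581), and 0.0068 with the intensities as deposited.

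Both untreated arrays numbered 2 bore on IL1B and TLR2 together, and the macrophage list moved with them. In MEKK1+/+ cells replicate 2 was the lowest untreated array for IL1B, for TLR2 and for the macrophage list, and in MEKK1-/- cells it was the highest for all 3. The response genes CXCL1 (9.44 and 13.76 on these arrays) and ICAM1 (8.40 and 9.56), taken up below, had the same order. So did the members IL1RN, IL1A, IL1RAP and TLR3, the last 3 near or under the olfactory level. The order was not that of IL1RL1, IL33, IL1R1, TLR4, CSF2, IL18, IRAK2 or TOLLIP. The 8 neutrophil markers in the table, of which 5 were above the olfactory level on no array, also differed between arrays. Their mean was 7.34, 6.85, 7.22 and 7.86 on untreated MEKK1+/+ replicates 1 to 4, lowest on replicate 2. Untreated MEKK1-/- replicates gave 7.39, 7.36, 6.87 and 6.95, with replicate 1 the highest. Between genotypes, 15 of the 20 macrophage markers were lower on MEKK1-/- arrays untreated (47.2% of all genes) and 16 of 20 with conditioned medium (48.4%). The median differences were -0.35 and -0.42, against 0.0080 and 0.0043 over all genes. Of the 20 markers 0 passed the adjusted threshold of limma in either, against 0% and 0.00552% of all genes. The summed intensity of the list ran from 10199 to 27940 on untreated MEKK1+/+ arrays, from 5007 to 13979 on untreated MEKK1-/- arrays, from 6173 to 16141 on MEKK1+/+ arrays with conditioned medium and from 4307 to 8293 on MEKK1-/- arrays with conditioned medium. With conditioned medium, the median over the list changed by -0.06 in MEKK1+/+ and by -0.03 in MEKK1-/- arrays. The part of macrophage or neutrophil RNA in the IL1B and TLR2 differences was not tested.

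Without both untreated arrays numbered 2, a choice made after the same genes had been seen and therefore no independent support, IL1B and TLR2 passed between the untreated genotypes, as did 0.96% of all genes. IL1B, under the olfactory level on the 3 MEKK1-/- arrays left, was at least 8.44-fold brighter on MEKK1+/+ arrays (limma adjusted p = 0.0293 for the measured means), and TLR2 differed by -2.35 (limma adjusted p = 0.00294). In that form 2 members passed with conditioned medium in MEKK1-/- arrays, IL1B at the bound given above (limma adjusted p = 0.00806 for the measured means) and TLR2 at 1.14 (limma adjusted p = 0.0342), against 4.52% of all genes, and 0 of 10 in MEKK1+/+ arrays, against 2.9%. Leaving out both MEKK1-/- arrays numbered 1 gave 0 of 10 with conditioned medium in MEKK1-/- arrays (4.24% of all genes) and 0 of 10 between genotypes, untreated (0.00552%) and with conditioned medium (0.011%).

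**Figure D4:**
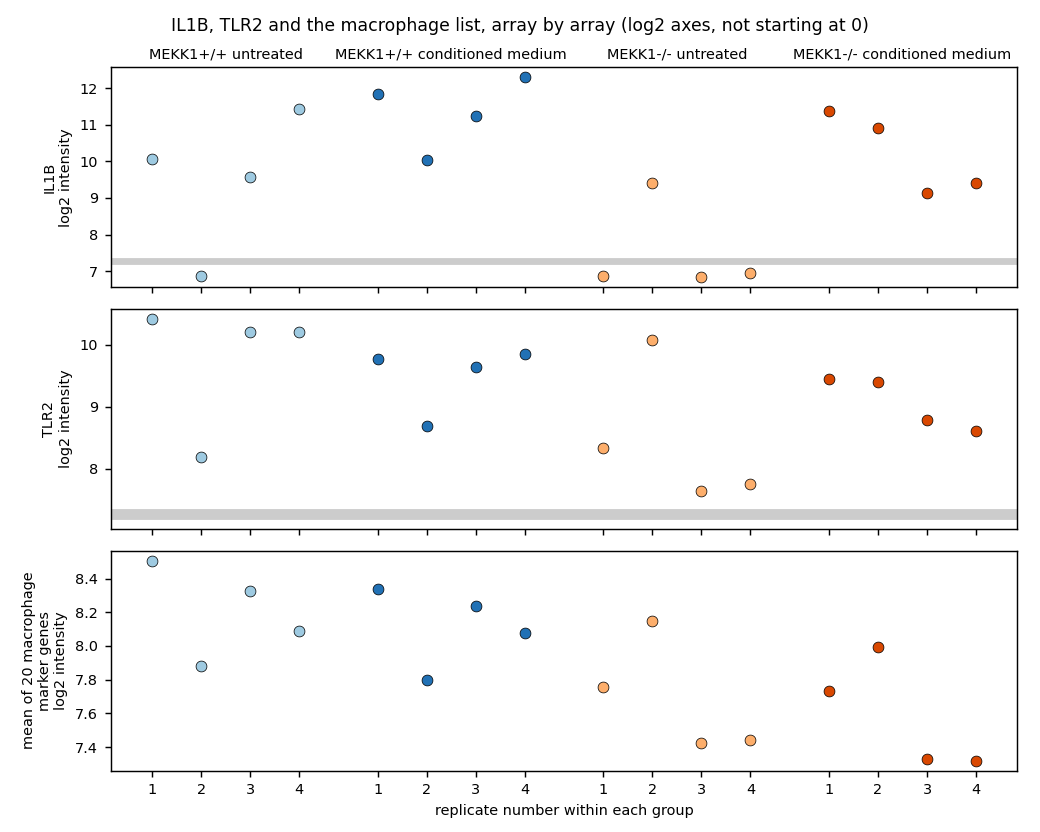
Normalized log2 intensity (y axes, not starting at 0) of IL1B and TLR2 and the mean of 20 macrophage markers, for replicates 1 to 4 (x axis) of each group, with a point per array and the olfactory level as a grey band. Among untreated arrays, replicate 2 is the lowest of MEKK1+/+ and the highest of MEKK1-/- in all 3 panels.

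By Pearson r over the 16 arrays, which share groups and are given as a description, the genes most like TLR2 were ETS2 (0.95), CD14 (0.93) and CSF1R (0.91), out of 6920 other genes above the olfactory level on all arrays. CD14 is the lipopolysaccharide co-receptor and CSF1R the receptor of a macrophage growth factor. Closest to IL1RL1 were RARRES2 (0.92), MMP3 (0.91) and EG630499 (0.90), and closest to IL33 were SOCS5 (0.84), IL13RA1 (0.82) and ATG2B (0.81). For IL1B, added after its values were seen, they were GP38 (0.95), MICALL2 (0.93) and GLRX (0.93). Among the members themselves, IL1B ran most closely with IL1A (0.87), which was near background, and then with IL1RL1 (0.81) and TLR2 (0.78).

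Genes around the members in the pathway were read from lists of their own. Of 12 other IL-1 family ligands and receptors in the table, 7 were above the olfactory level on no array. With conditioned medium in MEKK1+/+ arrays 1 of the 12 passed, against 5.01% of all genes. This was IL18, an inflammasome-processed cytokine, which read 7.82, 7.88, 7.75 and 7.68 untreated and 7.83, 8.44, 8.41 and 8.28 with conditioned medium. IL18 rose by 0.46 (SE 0.12, limma adjusted p = 0.0338), although leaving out any of 7 of the 8 arrays lifted the adjusted p over 0.05. It was 0.13 higher in MEKK1-/- arrays (limma adjusted p = 0.680). Of 7 other Toll-like receptors, 4 were above the level on no array and 0 passed in any comparison. Of all genes, 5.01% passed with conditioned medium in MEKK1+/+ and 4.69% in MEKK1-/- arrays. Between genotypes 0% passed untreated and 0.00552% with conditioned medium. These shares apply to each list of this paragraph. Of 8 co-receptors and chaperones 0 passed, while with the replicate block 3 did in MEKK1-/- arrays (7.93% of all genes) and 2 in MEKK1+/+ arrays (8.17%, numbers not past the pairing check). In MEKK1-/- arrays these were CD14 (1.01 higher, limma adjusted p = 0.0207), LBP, which hands lipopolysaccharide to CD14 and was above the olfactory level on 2 of 4 untreated arrays (0.89 as measured, limma adjusted p = 0.0343), and UNC93B1, the chaperone of endosomal Toll-like receptors (0.52, limma adjusted p = 0.0431), and LBP and UNC93B1 were also the 2 in MEKK1+/+ arrays. CD14 also differed by -2.05 between the untreated genotypes, with a limma adjusted p of 0.498. In the list of 7 IL-1 processing and inflammasome genes 0 passed. With the replicate block CASP4 did in MEKK1-/- arrays (0.72 higher, limma adjusted p = 0.0478), against 7.93% of all genes.

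Among 21 shared adaptors and proximal signalling genes, 0 passed as higher and 2 as lower with conditioned medium in each genotype. Of all genes, 5.01% passed in either direction in MEKK1+/+ and 4.69% in MEKK1-/- arrays. At any p, 10 of the 21 means were higher with conditioned medium in MEKK1+/+ and 9 in MEKK1-/- arrays. IRAK2, a kinase of the MYD88 complex, read 10.42, 10.38, 10.52 and 10.25 in untreated MEKK1+/+ arrays and 9.56, 8.84, 9.34 and 9.03 with conditioned medium. In MEKK1-/- arrays it read 10.62, 10.25, 10.37 and 10.29 untreated and 9.65, 9.04, 9.27 and 9.20 with conditioned medium, so that no treated array reached an untreated one in either genotype. IRAK2 fell by 1.20 (SE 0.15, limma adjusted p = 0.000434) in MEKK1+/+ and by 1.09 (SE 0.15, limma adjusted p = 0.000858) in MEKK1-/- arrays, and its untreated genotype difference was -0.01 (limma adjusted p = 0.987). TOLLIP, an inhibitor of IL-1 and Toll-like receptor signalling, fell by 0.27 in both (limma adjusted p = 0.0432 and 0.0435), close to the threshold, and several single arrays decided its call. With the replicate block the MEKK1-/- list gave 2 genes up and 2 down, against 7.93% of all genes. Those up were IRAK3, an inhibitory kinase (0.96 higher, limma adjusted p = 0.00562), and IRF7 (limma adjusted p = 0.0180). IRF7 was above the olfactory level on 1 of 4 untreated arrays and is given no fold. Those down were IRAK2 and the adaptor MYD88, which fell by 0.50 (limma adjusted p = 0.00758). The MEKK1+/+ list gave 1 up (IRAK3) and 1 down (IRAK2), against 8.17% of all genes (numbers not past the pairing check).

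Most listed target genes of IL-1 and Toll-like receptor signalling had higher means with conditioned medium in both genotypes. Their list was chosen with earlier results of these data known, so the counts are a description and no independent support. Of the 25 textbook response genes in the table, 25 had a higher mean in MEKK1+/+ and 24 in MEKK1-/- arrays, with median changes of 1.00 and 1.44, against -0.0018 and -0.0042 over all genes. In MEKK1+/+ arrays 3 passed (ICAM1, CSF2 and NFKB2), against 5.01% of all genes, and in MEKK1-/- arrays 12, against 4.69%. With the replicate block these counts were 10 in MEKK1+/+ (8.17% of all genes, numbers not past the pairing check) and 17 in MEKK1-/- arrays (7.93%). All those that passed rose. ICAM1, a leukocyte adhesion molecule, rose from 9.47 ± 0.75 to 12.14 ± 0.22 (SD, n = 4) in MEKK1+/+ and from 8.60 ± 0.66 to 12.15 ± 0.21 in MEKK1-/- arrays (2.67 and 3.55 higher, limma adjusted p = 0.000434 and 5.94e-05), with no overlap. CSF2, which encodes GM-CSF, rose by 2.48 in MEKK1+/+ arrays (limma adjusted p = 0.00839) and was under the olfactory level on all untreated MEKK1-/- arrays, so that it was at least 5.52-fold brighter with conditioned medium there (limma adjusted p = 0.00342). CXCL1, a neutrophil chemoattractant, rose by 4.03 in MEKK1-/- arrays (SE 0.97, limma adjusted p = 0.0276), an amount that lost its call when any of 6 of the 8 arrays was left out. It was 1.92 higher in MEKK1+/+ arrays (limma adjusted p = 0.349), where untreated arrays spread from 9.44 to 15.18.

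The same list differed in level between the untreated genotypes. There, 23 of the 25 genes had lower means on MEKK1-/- arrays, as did 47.2% of all genes. The median difference was -0.76, against 0.0080 over all genes. Of the list 0 passed the adjusted threshold of limma, as did 0% of all genes. With conditioned medium 18 of 25 were lower (48.4% of all genes), with a median of -0.20 (0.0043 over all genes). The difference of the responses was positive for 22 of 25 genes (median 0.43, against -0.0013 over all genes). Of the list 0 passed, as did 0% of all genes, and these counts share the untreated arrays with the others. The larger count of called genes in MEKK1-/- arrays is thus not shown to differ between genotypes.

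**Figure D5:**
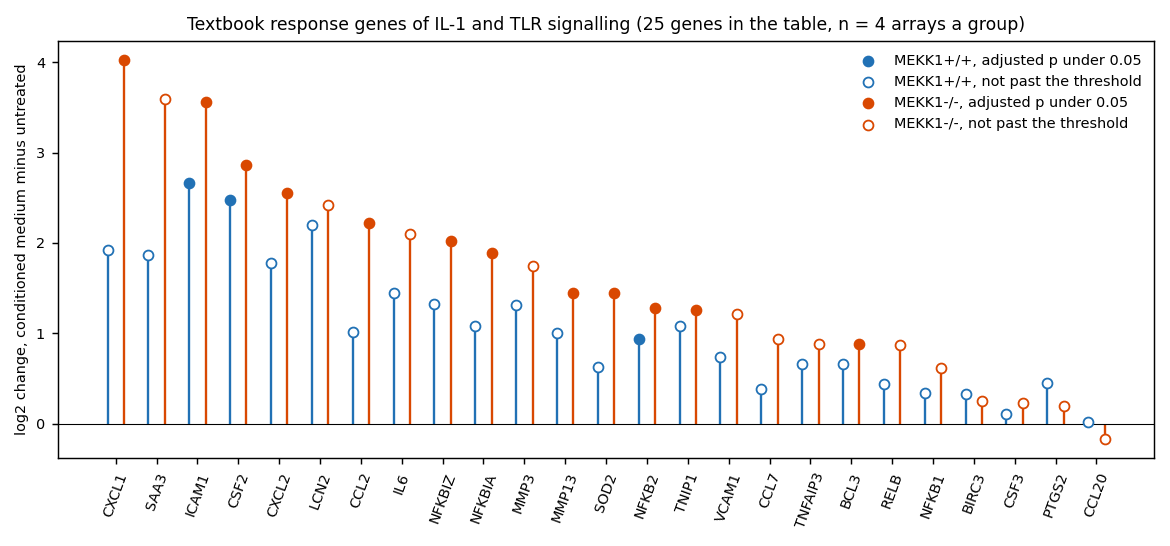
Log2 change with conditioned medium (y axis) of the 25 textbook response genes of IL-1 and Toll-like receptor signalling (x axis, ordered by the change in MEKK1-/- arrays), with filled points for an adjusted p under 0.05 by limma and open points otherwise. CCL20 in MEKK1-/- arrays is the 1 point below 0, and the filled points number 3 in MEKK1+/+ and 12 in MEKK1-/- arrays.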

How the data were processed

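RNA was labelled and hybridized by a core facility, and the authors deposited one intensity per gene symbol and array on a linear scale. The labels call these values normalized, while how they were normalized, background-corrected and summed over probes is not given in the sources used here. Array medians ran from 114 to 170.1, so log2 values were quantile normalized between arrays. Columns matched the labels by sample, none was identical to another, and arrays of a group correlated at 0.979 to 0.996. Precision is set by the 4 arrays per group.

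The 4 groups were fitted together in limma 3.58.1 (R 4.3.3, 12 residual degrees of freedom) over all 18132 genes, with Benjamini-Hochberg adjustment and a threshold of 0.05. For a single gene an exact 2-sided permutation test of 4 arrays against 4 was added (scipy 1.17.1). Adjusted p-values are those of limma throughout. The steps were tested on simulated data. A gene counted as above background on an array where it exceeded the 99th percentile of olfactory receptor genes. Named were the members, MAP3K1, the 3 largest rises and falls past the threshold per pathway list, and the 3 genes most correlated with each member detected on all arrays. Members and lists were chosen with earlier results of these data known, and other names after their values were seen. By the rule for sequences (a member called with conditioned medium in both genotypes) none would have been shown.

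The paper calls the arrays of a group culture replicates, and no source used here says whether a number marks the same mouse or culture in both treatments. Deviations from the group means, correlated across genes between same-numbered untreated and conditioned medium arrays, gave 0.505, 0.403, 0.219 and 0.251 in MEKK1-/- and -0.0379, 0.485, 0.120 and 0.576 in MEKK1+/+ arrays. MEKK1+/+ held both the lowest and the highest of these, and its numbers were judged not to pass this check. No cutoff was set and differently numbered arrays were not correlated in this way. The values therefore do not show pairing in either genotype. The replicate block within genotype still paired numbers in both genotypes, with a shared estimate of the spread. Its MEKK1-/- calls thus rest in part on the MEKK1+/+ pairing, while those of the block on MEKK1-/- arrays alone do not. Alternatives were the values as deposited, median scaling, normexp with an offset of 50, a pseudocount of 16, only genes above the median level, only the groups compared, the methods' z-test, a replicate block and each array left out. Added after the data were seen were a block on MEKK1-/- arrays alone and leaving out both untreated arrays numbered 2 or both MEKK1-/- arrays numbered 1.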

Additional observations from a re-analysis of the deposited data

Results flagged for a closer look

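Each gene was checked for an array far from the other 3 of its group (a gap to the nearest array, as a share of the group's range, above Dixon's critical value for 4 samples). Of 40 groups 3 met this, where chance gives about 1 in 20 groups. IL1B was high on untreated MEKK1-/- replicate 2, at 9.40 against 6.84 to 6.94 on the other arrays. TLR2 was low on untreated MEKK1+/+ replicate 2, at 8.20 against 10.20 to 10.41. TLR3 was high on MEKK1+/+ replicate 4 with conditioned medium, at 7.15 against 6.85 to 6.90, all under the olfactory level.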

How the results depend on the processing

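Between treated and untreated MEKK1+/+ arrays, the genes called over the whole table numbered 909, and 588 with only those groups, 1481 with the replicate block within genotype, 1916 by the methods' z-test, 525 without both untreated arrays numbered 2, and 506 to 987 with each array left out. In MEKK1-/- arrays they numbered 851, and 463 with median scaling, 45 with the values as deposited, 2047 by the z-test, 1438 with the replicate block, 1522 with the block on these arrays alone, and 477 to 1027 with each array left out. Between untreated genotypes the count of 0 became 817 by the z-test, 174 without both untreated arrays numbered 2, 1 without both MEKK1-/- arrays numbered 1, and 0 to 1 with an array left out. With conditioned medium the count of 1 became 7 with median scaling, 0 with only those groups, 460 by the z-test, 2 without both MEKK1-/- arrays numbered 1, and 0 to 2 with an array left out. For the interaction, 0 became 20 by the z-test, 3 without both untreated arrays numbered 2, and 0 to 1 with an array left out. In simulated data for the untreated genotypes, the z-test gave an unadjusted p under 0.05 for 9.74% of unchanged genes. That is more than such a p should give.

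Of the members, 0 were called in each comparison. In MEKK1+/+ arrays with conditioned medium this became 3 with the replicate block (IL1B, IL1RL1 and IL33, limma adjusted p = 0.0271, 0.0405 and 0.0456), where the numbers did not pass the pairing check, and 1 (IL1RN) with the values as deposited. In MEKK1-/- arrays it became 2 with either replicate block, 2 without both untreated arrays numbered 2, 1 (IL1B) by the z-test, and 0 to 1 with an array left out. Between untreated genotypes it became 2 without both untreated arrays numbered 2 and 1 (IL1RN) by the z-test. The block shared by all 4 groups called no member.

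Member differences kept their sign in 331 of 336 values under alternatives that keep every array and in 364 of 384 with an array left out. With the values as deposited, these turned for conditioned medium in MEKK1+/+ arrays (IL1A -0.20, TLR4 -0.040), between genotypes with conditioned medium (IL1RAP 0.14, TLR4 0.0068) and for the interaction (TLR4 0.11). Without both untreated arrays numbered 2, IL1A in MEKK1+/+ (-0.12) and IL33 between untreated genotypes (0.0036) turned, and without both MEKK1-/- arrays numbered 1 the latter did (0.13). With an array left out, the ranges crossing 0 were -0.12 to 0.32 for IL1A and -0.15 to 0.049 for IL1RAP in MEKK1+/+ arrays, -0.028 to 0.055 for IL1RAP in MEKK1-/- arrays, -0.70 to 0.0063 for IL1RL1 and -0.12 to 0.13 for IL33 between untreated genotypes, and -0.037 to 0.16 for IL1RAP and -0.28 to 0.43 for IL1RL1 for the interaction. The IRAK2 fall passed in every alternative but the values as deposited in MEKK1-/- arrays (-1.11, limma adjusted p = 0.111). The cause of these changes was not tested. Signal limits IL1A, IL1RAP and TLR4, which were near the olfactory level.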
